A study of Ovis aries with 36 samples.

Results

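The ubiquitin-conjugating enzymes (E2 enzymes) and 3 families of deubiquitinases were measured as RNA in ruminal epithelial cells of sheep, grown in culture with either of 2 volatile fatty acid (VFA) media. The set holds every gene of the deposited count table whose symbol starts with UBE2, with USP and a digit, with OTUD or with UCHL, except USP2 and UBE2C, which were left out by the rule. It has 91 of the 35223 counted genes: 33 UBE2, 47 USP, 8 OTUD and 3 UCHL genes. The rule itself reads gene names and no measured value. USP6NL matches by its name only, since it encodes a GTPase-activating protein and no deubiquitinase, and USP39 is a family member regarded as lacking protease activity.

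Ubiquitin is a small protein that is attached to other proteins in a relay: an E1 enzyme activates it, an E2 enzyme carries it, and an E3 ligase directs it to a substrate. The kind of chain that the E2 builds decides whether the substrate is degraded by the proteasome, sorted in the endosome or used as a signal. Deubiquitinases cut ubiquitin off again, and the USP, OTUD and UCHL genes encode cysteine protease families of this kind. The rumen epithelium takes up the VFAs that microbes release from feed, and its cells renew continuously.

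All cells first received 100 nM dexamethasone, a glucocorticoid that sets cellular clocks in step, for 2 h without serum, and were then given a VFA medium of pH 7.2 that copied the rumen of sheep on a grain or a hay diet. The labels put the VFA total of Grain medium at 115.78 mM (71.1 mM acetate, 20.1 mM propionate, 16.0 mM butyrate, 1.7 mM valerate, 1.1 mM isobutyrate and 5.3 mM isovalerate), and that of Hay medium at 89.79 mM (60.8, 14.6, 9.2, 1.2, 1.0 and 3.0 mM of the same acids). Harvests at 24 h (T0), 28 h (T4), 32 h (T8), 36 h (T12), 40 h (T16) and 44 h (T20) gave 3 libraries for each medium and time point, 36 in all, and the event from which these hours run is not clear in the labels. Grain and Hay are compared only with each other, since a culture lacking VFAs was not analysed here. Whether replicate libraries stem from different animals or dishes is not in the labels, and the p-values then cover no more than the variation among these libraries, possibly a technical one.

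Libraries held 52.4 to 68.1 M counts, and replicates of a group correlated at 0.981 to 0.987 across genes on the log scale. Markers of more than 1 cell type were found in every library. Basal keratinocyte markers summed to 444 to 1063 CPM (counts relative to library size, scaled by TMM) in Grain and 473 to 696 in Hay, simple epithelium markers, among them CDH1, to 141 to 219 and 250 to 297, and fibroblast markers to 19232 to 31630 and 17518 to 24166. The fibroblast sum rests largely on collagens and on VIM, vimentin (13167 ± 1127 CPM in Grain and 6375 ± 310 in Hay, SD, n = 18 libraries each). The label names epithelial cells, and whether this RNA came from them or from fibroblasts in the culture was not tested. VIM rose, whereas 5 of the 8 fibroblast markers fell, among them COL1A2 (-0.74) and PDGFRA (-0.80). Of 5 smooth muscle markers 4 rose and 1 fell, with DES, desmin, at 74.1 ± 17.1 CPM in Grain and a rise by 3.12, and with sums of 373 to 907 CPM in Grain and 197 to 957 in Hay. Only 2 of 4 markers of differentiated keratinocytes passed the low-count filter, at sums of 8.02 to 14.3 CPM and 17.5 to 22.6. In Grain 6 of 6 proliferation markers rose, with a summed level of 102 to 177 CPM against 48.5 to 60.2 in Hay, and 4 of 5 stress genes of the endoplasmic reticulum (ER) rose. Of 6 interferon response genes, 5 fell, with a summed level of 94.7 to 120 CPM against 276 to 326. In bulk RNA, fewer cells of a type and less RNA per cell cannot be told apart, and the part of these shifts in the results that follow was not tested.

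Most genes of the set were well covered. Of the 91, 68 had at least 1000 counts in every library, a count for which no share over all genes was taken. The low-count filter was passed by 89 (22488 of all 35223 genes), of which 9 stood under 5 CPM in both media. The median of those 89 was 5.85 log2 CPM against 2.54 over all 22488 genes tested. USP9X, a large deubiquitinase of signalling proteins, had the highest counts, with 393 ± 17.7 CPM in Grain and 458 ± 15.3 in Hay. UBE2G1, an E2 enzyme of chain extension, was counted 0 times in 34 of 36 libraries and at most 4 times in the other 2, and OTUD6A had 0 in 34 and at most 3 in the other 2. Neither was tested, and whether the annotation behind the counts missed their transcripts was not tested. In sum the set made up 0.663% ± 0.0306 of all counts in Grain and 0.712% ± 0.0200 in Hay (SD, n = 18 each), while after TMM scaling its summed level was 6911 CPM in Grain and 6825 in Hay.

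The choice of scaling sets this difference in sign, and it moves every small change given here. The TMM factor, which multiplies the library total, ran from 0.859 to 0.869 in the 3 Grain T12 libraries and from 1.04 to 1.05 in Grain T8, and from 0.982 to 1.00 and from 1.07 to 1.09 in the same time points of Hay. A fit that used library totals only, chosen after the data were seen, moved the median log2 fold change of all genes from -0.07 to -0.19 and that of the set from 0.04 to -0.08. Of the 89 genes, 36 were called higher and 38 lower in Grain under TMM, DESeq2 size factors and library totals alike. Under none of these 3 scalings 2 were called, and 13 changed their call or direction. Shares over all genes were not taken for these counts, so they do not set these families apart. Those 13 are UBE2G2, UBE2Q1, UBE2T, UBE2Z, OTUD4, USP5, USP6NL, USP8, USP16, USP33, USP36, USP38 and USP48, whose log2 fold changes under TMM lay between -0.05 and 0.15. Log2 fold changes below are Grain over Hay after TMM scaling.

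Averaged over the 6 time points, the set split nearly evenly between rises and falls, and most of its changes were small. Of the 89 genes, 82 passed the test (edgeR's quasi-likelihood, adjusted p under 0.05), where 81.8% of all tested genes did, so the share called says little about these families. Grain was higher for 44 (background 37.9% of all genes) and lower for 38 (background 43.9%), and with library totals only for 36 and 45. Of the called changes, 31 were under 0.25 on the log2 scale, 24 lay between 0.25 and 0.5, 23 between 0.5 and 1, and 4 reached 1. The median absolute log2 fold change was 0.31 in the set and 0.49 over all genes. Values over all genes, here and below, are not matched for level: 79 of the 89 genes lay above the median level of all genes. The rank correlation of log2 fold change with level was 0.327 over all genes and -0.088 in the set. The part of level in any difference from the background was not tested. Rises of at least 2-fold were met by 3 genes, USP45, UBE2O and USP28 (background 5.7%), and falls of at least 2-fold by 1, USP26 (background 16%). USP26, a testis gene elsewhere, is no firm case: its level was 0.0214 ± 0.0488 CPM in Grain against 0.0899 ± 0.0774 in Hay, and without Hay T0 replicate 1 or Hay T16 replicate 2 its adjusted p was 0.9999.

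By family, E2 enzymes had more falls than rises, as all tested genes did, and USP genes had more rises than falls. Of 32 UBE2 genes tested 12 rose, 17 fell and 3 did not pass, with a median of -0.05, and of 47 USP genes 28 rose, 16 fell and 3 did not pass, with a median of 0.13. With library totals only these splits were 11 and 21 for UBE2 and 22 and 19 for USP, so the larger number of rises among USP genes held in both scalings and the size of the excess did not. The 7 OTUD genes tested had 3 rises and 3 falls, and the 3 UCHL genes had 1 rise and 2 falls. The difference between the families was not tested.

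**Figure D1:**
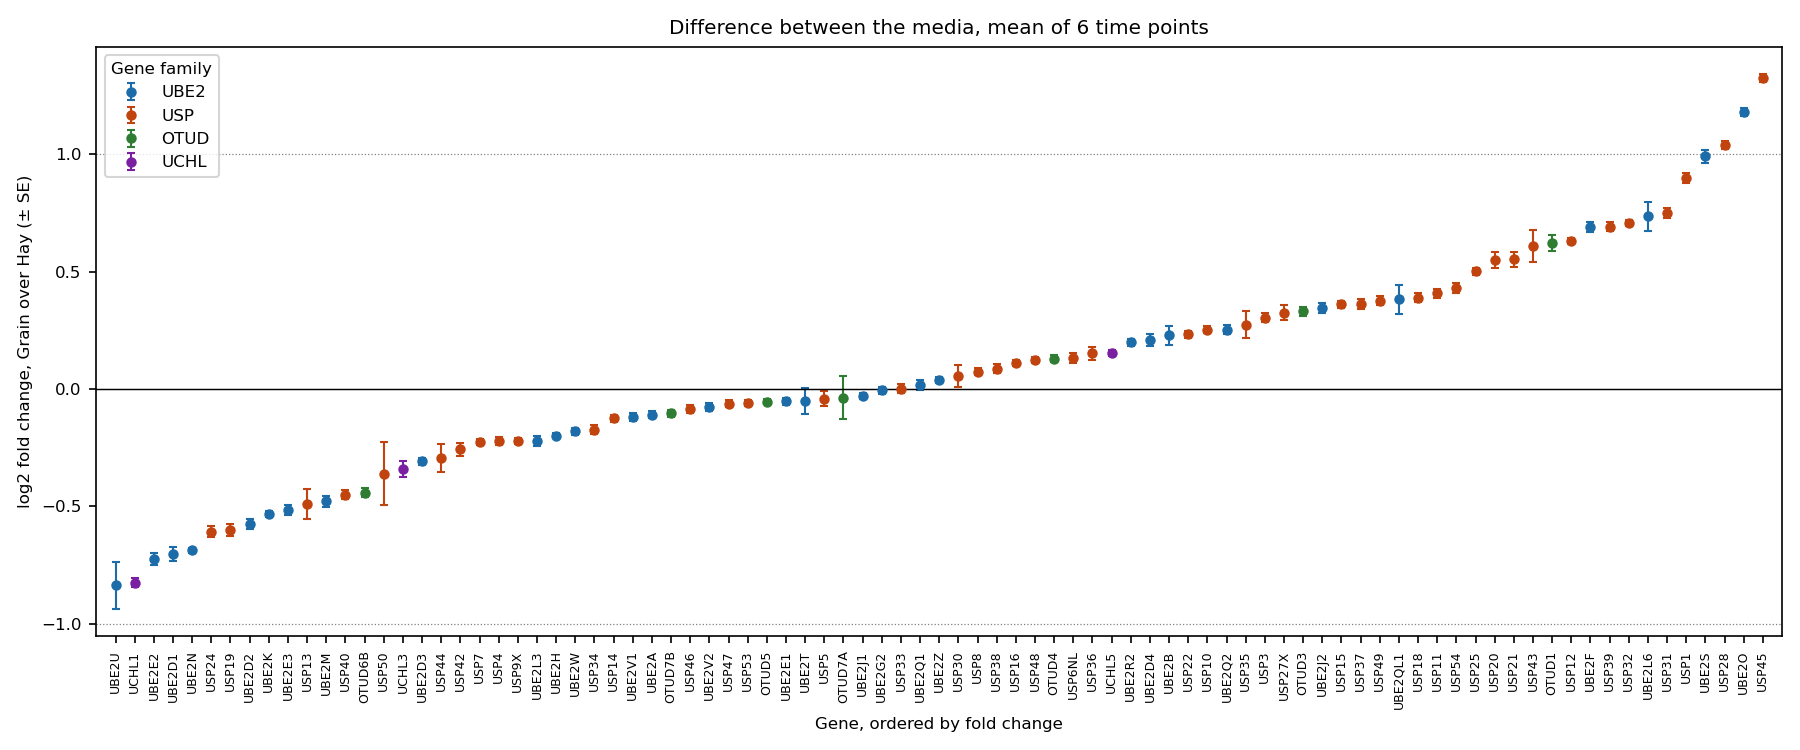
Log2 fold change of Grain over Hay (vertical axis, mean of 6 time points, TMM scaling, bars ± SE) for the tested genes in order of size (horizontal axis), coloured by family. Dotted lines mark 2-fold. USP26 (-2.68) at near-floor counts and 1 gene that is not reported here are left off, and USP45, UBE2O and USP28 are the genes above the upper line.

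Among the E2 enzymes that start chains on many substrates, 10 of 16 fell, 5 rose and 1 did not pass, with a median of -0.19. The UBE2D enzymes, the most widely used partners of RING ligases, fell in 3 of their 4 genes. UBE2D1 ran from 21.5 to 35.6 CPM in Grain (median 26.7) and from 29.7 to 53.5 in Hay (median 43.4), a fall by 0.70 (SE 0.030, adjusted p = 2.9e-22), with libraries that overlapped. UBE2D2 ran from 67.8 to 93.6 CPM in Grain (median 82.9) and from 114 to 133 in Hay (median 123), a fall by 0.58 (SE 0.022), and every Grain library lay below every Hay library. UBE2D3 fell by 0.31 (SE 0.015; 167 ± 5.68 against 206 ± 6.11 CPM), and by 0.21 when its counts were summed with those of the genes that overlap it. UBE2D4 was called higher by 0.21 (SE 0.026), but with the overlapping gene URGCP, which has 21.2% of its counts, the sum stood at -0.02.

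The UBE2E enzymes, which carry an extension before the catalytic core, fell by unequal amounts. UBE2E2 ran from 14.7 to 20.0 CPM in Grain (median 16.4) and from 24.5 to 30.8 in Hay (median 28.1), a fall by 0.72 (SE 0.028, adjusted p = 8.73e-24). UBE2E3 had 38.0 ± 2.41 CPM in Grain against 54.2 ± 2.39 in Hay, a fall by 0.51 (SE 0.022). Grain and Hay libraries did not overlap for either gene, whereas UBE2E1 (-0.05, SE 0.015) overlapped widely and changed sign with time. UBE2E2 shares its locus with another annotated gene that has 45.4% of its counts, and summed with it the fall was 0.36.

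UBE2O went the other way and had the largest rise of any E2 enzyme in the set. This unusually large enzyme acts as E2 and E3 in a single chain and is known for clearing orphan ribosomal proteins. It ran from 54.3 to 82.7 CPM in Grain (median 64.2) and from 24.5 to 32.8 in Hay (median 28.4), a rise by 1.18 (SE 0.019, adjusted p = 9.18e-36) with no overlap between libraries. UBE2H, the partner of the CTLH ligase, fell by 0.20 (SE 0.010; 306 ± 20.9 against 351 ± 11.8 CPM). UBE2L3, which serves HECT and RBR ligases, fell by 0.22 (SE 0.021), UBE2W, which modifies protein ends, by 0.18 (SE 0.014), and UBE2Q2 rose by 0.25 (SE 0.018). UBE2U fell by 0.84 (SE 0.10) at only 0.913 ± 0.431 CPM in Grain and 1.53 ± 0.394 in Hay.

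Enzymes that lengthen chains fell, except for the mitotic UBE2S and for UBE2R2, a close copy of CDC34. UBE2N, which builds signalling chains with UBE2V1 or UBE2V2, ran from 111 to 129 CPM in Grain (median 118) and from 176 to 212 in Hay (median 191), a fall by 0.69 (SE 0.012, adjusted p = 4.28e-35). Its partners UBE2V1 (-0.12, SE 0.017) and UBE2V2 (-0.08, SE 0.016) fell by less. UBE2K, which makes chains for degradation, ran from 81.5 to 99.1 CPM in Grain (median 87.7) and from 122 to 138 in Hay (median 130), a fall by 0.53 (SE 0.013). For both UBE2N and UBE2K all Grain libraries lay below all Hay libraries. UBE2S, which lengthens chains on targets of the anaphase-promoting complex in mitosis, ran from 33.0 to 63.2 CPM in Grain (median 42.6) and from 17.8 to 29.9 in Hay (median 21.4), a rise by 0.99 (SE 0.028, adjusted p = 4.1e-28), beside the proliferation markers given above. UBE2R2 rose by 0.20 (SE 0.015; 141 ± 6.79 against 123 ± 3.92 CPM).

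Of the 3 E2 enzymes of ER-associated degradation 1 rose, 1 fell by a small amount and 1 did not pass, while most of the ligases and partners tested rose. UBE2J1, the main ER-anchored E2, had 263 ± 6.51 CPM in Grain against 269 ± 9.63 in Hay (-0.03, SE 0.012, adjusted p = 0.031), a call lost without any 1 of 8 libraries (adjusted p up to 0.0902). UBE2G2, another E2 enzyme of this pathway, stood at 65.6 ± 3.48 and 65.9 ± 2.87 CPM (-0.01, SE 0.014). UBE2J2 alone rose, by 0.35 (SE 0.021; 70.1 ± 3.41 against 55.2 ± 3.39 CPM) with no overlap of libraries. Of 11 ligases and partners of the same pathway 10 rose and 1 did not pass, with HERPUD1 at 2.36 (SE 0.016), the ligase SYVN1 at 0.93 (SE 0.041) and its adaptor SEL1L at 0.68 (SE 0.013), and with library totals only 8 rose and 3 fell. A test of the difference between the E2 enzymes and these partners was not run.

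Of the E2 enzymes for DNA repair and chromatin, UBE2A, a RAD6 enzyme, fell by 0.11 (SE 0.016). Its copy UBE2B was called higher by 0.23 (SE 0.039), but its Hay libraries ran from 80.0 to 171 CPM (median 152), with Hay T12 replicate 1 as the lowest. UBE2B overlaps CDKL3, which has 48.6% of its counts, and for the sum of both genes the difference was 0.03 (adjusted p = 0.125). UBE2T, the E2 enzyme of the Fanconi anaemia pathway, did not pass (-0.05, SE 0.057; 5.15 ± 0.670 and 5.37 ± 1.00 CPM). Summed with the overlapping gene LGR6 it stood at 0.19.

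Enzymes that carry ubiquitin-like proteins moved apart within NEDD8, the modifier that activates cullin ligases. UBE2F, the NEDD8 enzyme dedicated to the cullin CUL5, ran from 26.0 to 40.9 CPM in Grain (median 32.2) and from 17.8 to 24.5 in Hay (median 19.3), a rise by 0.69 (SE 0.021, adjusted p = 3.24e-27) with no overlap. UBE2M, which serves the other cullins, ran from 22.2 to 29.4 CPM in Grain (median 24.0) and from 28.8 to 39.6 in Hay (median 33.3), a fall by 0.48 (SE 0.024) with overlap at the edge. UBE2L6, the E2 for the interferon-induced modifier ISG15, rose by 0.74 (SE 0.064) at low levels of 3.14 ± 0.399 and 1.90 ± 0.342 CPM. USP18, which removes ISG15, rose by 0.39 (SE 0.020; 41.2 ± 3.32 against 31.4 ± 1.15 CPM), whereas ISG15 itself fell by 0.73 (SE 0.12), so these 2 enzymes did not share the direction of most interferon response genes.

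Of 8 deubiquitinases listed for DNA damage and p53, 5 rose and 3 fell, with a median of 0.33. They held 3 of the 5 largest rises with a constant direction at 5 CPM or more, the others being UBE2O and UBE2S. The list was drawn up with earlier results of these data known, so its share of the largest rises is no independent result. USP45, known to act on the repair nuclease subunit ERCC1, ran from 65.5 to 89.5 CPM in Grain (median 81.6) and from 28.0 to 33.7 in Hay (median 31.6), a rise by 1.33 (SE 0.018, adjusted p = 9.21e-38). USP28, a stabiliser of MYC, ran from 72.0 to 114 CPM in Grain (median 94.8) and from 40.5 to 53.1 in Hay (median 43.3), a rise by 1.04 (SE 0.016, adjusted p = 3.96e-36). USP1, which acts on FANCD2 and PCNA, ran from 81.0 to 114 CPM in Grain (median 95.4) and from 47.7 to 57.3 in Hay (median 50.8), a rise by 0.90 (SE 0.020, adjusted p = 3.5e-31). Every Grain library lay above every Hay library for these 3 genes. WDR48, the activating partner of USP1 and USP12, rose by only 0.05 (SE 0.013). USP24, which ran from 28.6 to 35.1 CPM in Grain (median 32.1) and from 42.4 to 54.1 in Hay (median 49.6), fell by 0.61 (SE 0.022, adjusted p = 8.66e-25). USP7, the deubiquitinase of MDM2, fell by 0.23 (SE 0.013; 92.9 ± 3.54 against 109 ± 1.61 CPM) with no overlap of libraries.

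**Figure D2:**
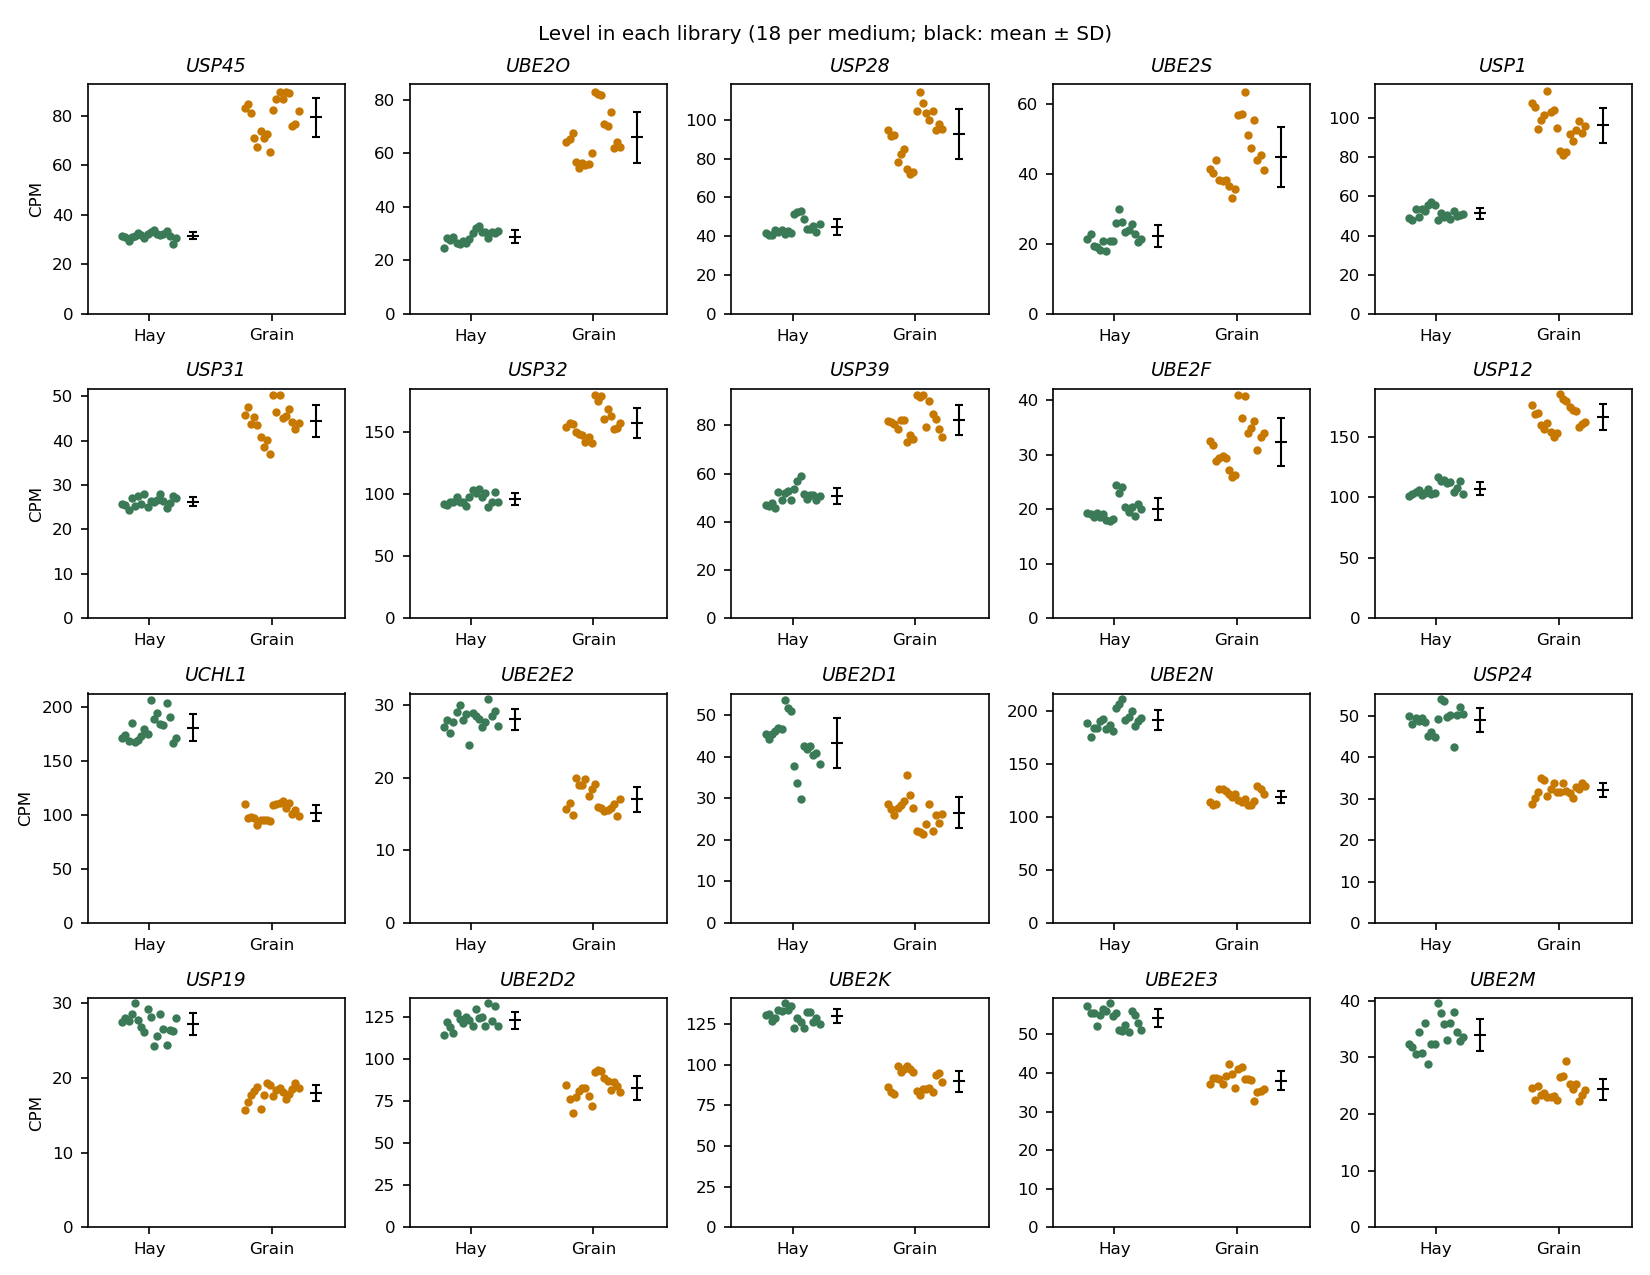
Level in each library (vertical axis, CPM after TMM scaling, from 0) of the 10 genes with the largest rises and the 10 with the largest falls, in Hay and Grain (18 libraries each, black: mean ± SD). Grain and Hay points do not overlap in 18 of the 20 panels, and they overlap for UBE2D1 and UBE2M.

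Of 8 deubiquitinases of histones and chromatin 7 rose and 1 fell, with a median of 0.27, and with library totals only 5 rose and 1 fell. USP49 (0.38, SE 0.019; 45.1 ± 3.71 against 34.7 ± 2.09 CPM) and USP22 (0.23, SE 0.015; 104 ± 12.2 against 88.3 ± 2.34 CPM) remove ubiquitin from histone H2B, USP22 as the enzyme of the SAGA coactivator. USP49 overlaps TOMM6 and MED20, which have 41.8% and 44.8% of its counts. USP21 (0.55, SE 0.033; 13.8 ± 1.43 against 9.41 ± 1.05 CPM) and USP3 (0.30, SE 0.020; 33.2 ± 1.21 against 27.0 ± 2.22 CPM) act on H2A. USP44, an H2B enzyme at 2.80 ± 0.526 and 3.40 ± 0.390 CPM, was the 1 that fell (-0.29, SE 0.059). USP22's partners in SAGA went apart, ENY2 up by 0.40 (SE 0.019), ATXN7 down (-0.34, SE 0.017) and ATXN7L3 not past the test (-0.04).

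Of the 4 deubiquitinases of the proteasome and of free chains 1 rose, 2 fell and 1 did not pass. UCHL5, a proteasome subunit, rose by 0.16 (SE 0.013; 148 ± 7.10 against 133 ± 6.72 CPM) and USP14, the other deubiquitinase that docks there, fell by 0.12 (SE 0.015; 152 ± 9.44 against 165 ± 7.83 CPM). USP5, which recycles free chains, did not pass (-0.04, SE 0.031), and its copy USP13 fell by 0.49 (SE 0.063) at 3.10 ± 0.614 and 4.35 ± 0.782 CPM. USP14 overlaps THOC1, which has 39.2% of its counts, and USP13 overlaps PEX5L, which has 52.8%. Of the 7 at membranes 4 rose, 1 fell and 2 did not pass. USP32, a membrane-bound enzyme of the Golgi and endosome, ran from 141 to 181 CPM in Grain (median 155) and from 90.3 to 104 in Hay (median 94.1), a rise by 0.71 (SE 0.014, adjusted p = 7.09e-33). USP19, anchored in the ER, ran from 15.7 to 19.3 CPM in Grain (median 18.1) and from 24.2 to 29.9 in Hay (median 27.5), a fall by 0.60 (SE 0.026). Libraries of the media did not overlap for USP32 or USP19. USP30, the mitochondrial deubiquitinase, did not pass (0.06, SE 0.048), and it overlaps ALKBH2.

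Signalling deubiquitinases were split, 4 up and 4 down. USP12, which works with WDR48 and WDR20, ran from 150 to 185 CPM in Grain (median 165) and from 101 to 117 in Hay (median 105), a rise by 0.63 (SE 0.013, adjusted p = 1.05e-32). USP31 ran from 37.0 to 50.3 CPM in Grain (median 44.7) and from 24.3 to 27.9 in Hay (median 26.3), a rise by 0.75 (SE 0.020). USP25 rose by 0.50 (SE 0.014), and USP15, an enzyme of TGF-beta signalling, by 0.36 (SE 0.013), each with no overlap. USP9X (-0.22, SE 0.013), USP4 (-0.22, SE 0.017), USP34, an enzyme of WNT signalling (-0.17, SE 0.019), and USP46 (-0.08, SE 0.018) fell. USP39, a splicing factor built on an inactive USP fold, ran from 73.2 to 92.7 CPM in Grain (median 81.6) and from 45.8 to 58.9 in Hay (median 50.8), a rise by 0.69 (SE 0.018).

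UCHL1 had the largest firm fall of the set. This small hydrolase is best known from neurons and endocrine cells. It ran from 91.2 to 113 CPM in Grain (median 100) and from 167 to 207 in Hay (median 177), a fall by 0.82 (SE 0.019, adjusted p = 1.43e-30), with no overlap and the same direction at all 6 time points. Of 5 neuroendocrine and neuronal markers tested, 2 fell (CHGB -1.34, CHGA -0.68), 2 rose (RBFOX3 0.20, ENO2 0.09) and SYP did not pass (-0.01), with a summed level of 66.2 to 120 CPM in Grain and 88.9 to 193 in Hay, and their part in the fall of UCHL1 was not tested. UCHL3 fell by 0.34 (SE 0.033; 42.8 ± 4.21 against 54.2 ± 3.92 CPM). In the OTUD family OTUD1 (0.62, SE 0.035; 15.2 ± 2.09 against 9.89 ± 1.32 CPM) and OTUD3 (0.33, SE 0.017) rose and OTUD6B (-0.44, SE 0.018; 49.1 ± 5.72 against 66.3 ± 2.80 CPM) fell, each with no overlap of libraries, and OTUD7A did not pass (-0.04) at 1.25 ± 0.277 CPM in Grain.

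All 18 Grain libraries lay above all 18 Hay libraries for 22 genes of the set (background 15.4%) and below them for 12 (background 11.9%), and 55 overlapped. Time points taken singly gave these splits: T0 had 39 rises with 30 falls (62.8% of all genes called), T4 had 36 with 28 (57.8%), T8 had 34 with 34 (56.8%), T12 had 41 with 28 (64.3%), T16 had 42 with 30 (62.7%) and T20 had 40 with 29 (58.9%). Over all genes rises and falls numbered 7106 and 7021 at T0, 6715 and 6272 at T4, and 6645 and 6121 at T8. They numbered 6798 and 7310 at T16, and 6682 and 6556 at T20. The T12 split of the set with library totals only turned to 25 up and 46 down. That of all genes turned likewise to 4934 up and 9728 down (6915 and 7548 with TMM). The same direction was kept at all 6 time points by 70 of 89 genes, a count for which no share over all genes was taken, so it does not set these families apart. A call at every time point was reached by 29 higher (background 21%) and 19 lower in Grain (background 18%).

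Within a library the ratio of 2 related genes needs no scaling, and this ratio differed between the media for most of the pairs compared. Of 24 pairs compared, 20 had an adjusted p under 0.05 in a permutation test of the log2 count ratio (100000 resamples, two-sided, Benjamini-Hochberg over 24 pairs), and in 13 the Grain and Hay libraries did not overlap. Libraries were shuffled between the media without regard to time point, so differences between time points enter the spread and the SE. A pair that did not pass may still differ at matched time points, which was not tested. Ratios of unrelated genes were not taken as a background, and 81.8% of all tested genes differed between the media. The counts of pairs therefore say little about close copies, and pairs that share a gene are not independent. Adjusted p was 2.67e-05 for each pair called here unless given, which comes from 2e-05, the smallest p the resampling can give. USP12 over USP46, 2 copies that share their activator, shifted by 0.71 towards USP12 in Grain (SE 0.027; mean log2 ratio 1.99 ± 0.0849 against 1.28 ± 0.0756). USP16 over USP45 shifted by -1.21 (SE 0.059), UCHL1 over UCHL5 by -0.98 (SE 0.042), and UBE2L3 over UBE2L6 by -0.96 (SE 0.057). USP4 over USP11 (-0.63, SE 0.046) and USP4 over USP15 (-0.58, SE 0.053) shifted against USP4, whereas USP11 over USP15 did not pass (0.05, SE 0.030, permutation adjusted p = 0.13). Likewise UBE2D1 over UBE2D2 did not pass (-0.13, SE 0.084, permutation adjusted p = 0.151), nor did UBE2V1 over UBE2V2 (-0.04, SE 0.038, 0.278) or OTUD7A over OTUD7B (0.07, SE 0.11, 0.531). UBE2E1 over UBE2E2 shifted by 0.67 (SE 0.053) and UBE2A over UBE2B by -0.35 (SE 0.085), both with the overlapping genes named above. A ratio shows unequal change and not which copy changed.

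**Figure D3:**
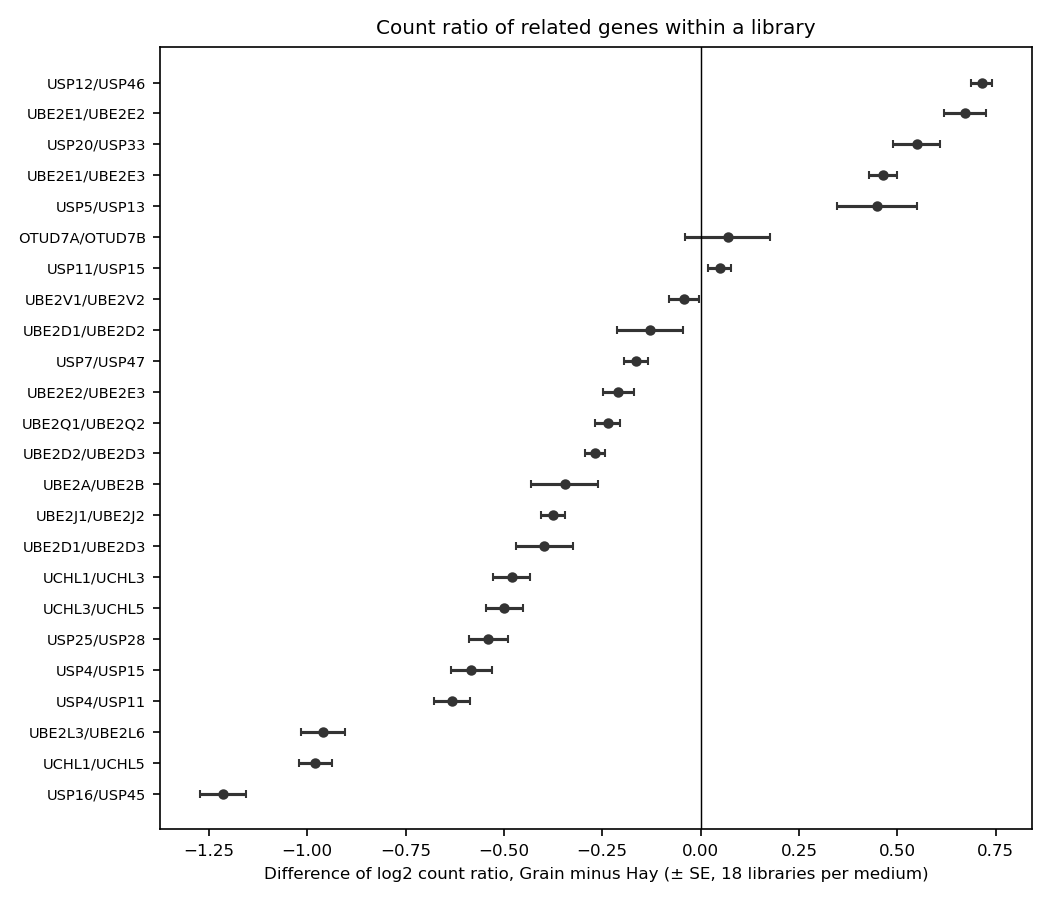
Difference of the log2 count ratio of related genes within a library, Grain minus Hay (horizontal axis, points with ± SE, 18 libraries per medium with time points pooled), for 24 pairs (vertical axis). Points right of 0 mark a ratio that was higher in Grain, and USP16/USP45 (-1.21) and USP12/USP46 (0.71) are the ends.

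The difference between the media depended on time for 39 of the 89 genes (F test of 5 contrasts, background 32.6%). Of these, 27 kept their direction at all 6 time points and 12 did not, with no share over all genes taken for this split. For USP53, USP37 and USP22 the course was alike: Grain went down from T0 to T8, stepped up at T12 and then went down again, while Hay moved little. USP53, a gene linked to tight junctions, had 108, 110 and 113 CPM in the 3 Grain T8 libraries and 131, 132 and 140 in Hay, and 153, 156 and 157 against 129, 130 and 133 at T12. Grain therefore lay below Hay at T8 (-0.29, SE 0.032) and above it at T12 (0.25, SE 0.032), with no overlap at either time (adjusted p of the dependence on time = 2.31e-11). With library totals only the T12 difference was 0.05, so the crossing rests on the scaling, and the dependence on time does not (2.74e-09). USP53 overlaps PDE5A, which has 71.9% of its counts.

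USP37, which stabilises cyclin A at the entry to S phase, had 40.4, 41.9 and 42.9 CPM in Grain at T8 and 62.5, 64.6 and 66.5 at T12, against 39.5, 42.5 and 43.0 and 36.1, 37.7 and 40.6 in Hay. The media were alike at T8 (0.00, SE 0.054) and apart by 0.76 (SE 0.054) at T12 (dependence on time, adjusted p = 2.56e-10), and with library totals only the values were -0.04 and 0.56. USP22 had 86.8, 87.2 and 96.3 CPM in Grain at T8 and 119, 122 and 126 at T12, while all Hay libraries lay between 83.8 and 92.1. Its difference went from 0.04 (SE 0.036) to 0.49 (SE 0.036; adjusted p = 5.05e-09), and that of USP49 from 0.09 (SE 0.045) to 0.61 (SE 0.046; 5.73e-07). The T12 differences were 0.30 for USP22 and 0.42 for USP49 with library totals only. Counts summed with overlapping genes were fitted for the mean of 6 time points only. The time courses of USP49 and USP53 were therefore not checked in that way. UBE2H narrowed instead, with a T8 difference of -0.36 (SE 0.026) and a T12 difference of -0.03 (SE 0.026; 5.63e-10), and with library totals only these were -0.41 and -0.23. With TMM Grain went from 277 ± 7.12 to 336 ± 7.40 CPM and Hay from 357 ± 5.00 to 344 ± 7.01 (SD, n = 3), whereas with library totals only the Grain step from T8 to T12 was -0.00 on the log2 scale. UBE2N widened, from -0.61 (SE 0.028) to -0.84 (SE 0.028; 1.50e-06), with Hay at 203, 207 and 212 CPM and Grain at 115, 117 and 117 at T12. These 6 genes kept their call for a dependence on time with library totals only, at adjusted p values up to 0.000141.

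**Figure D4:**
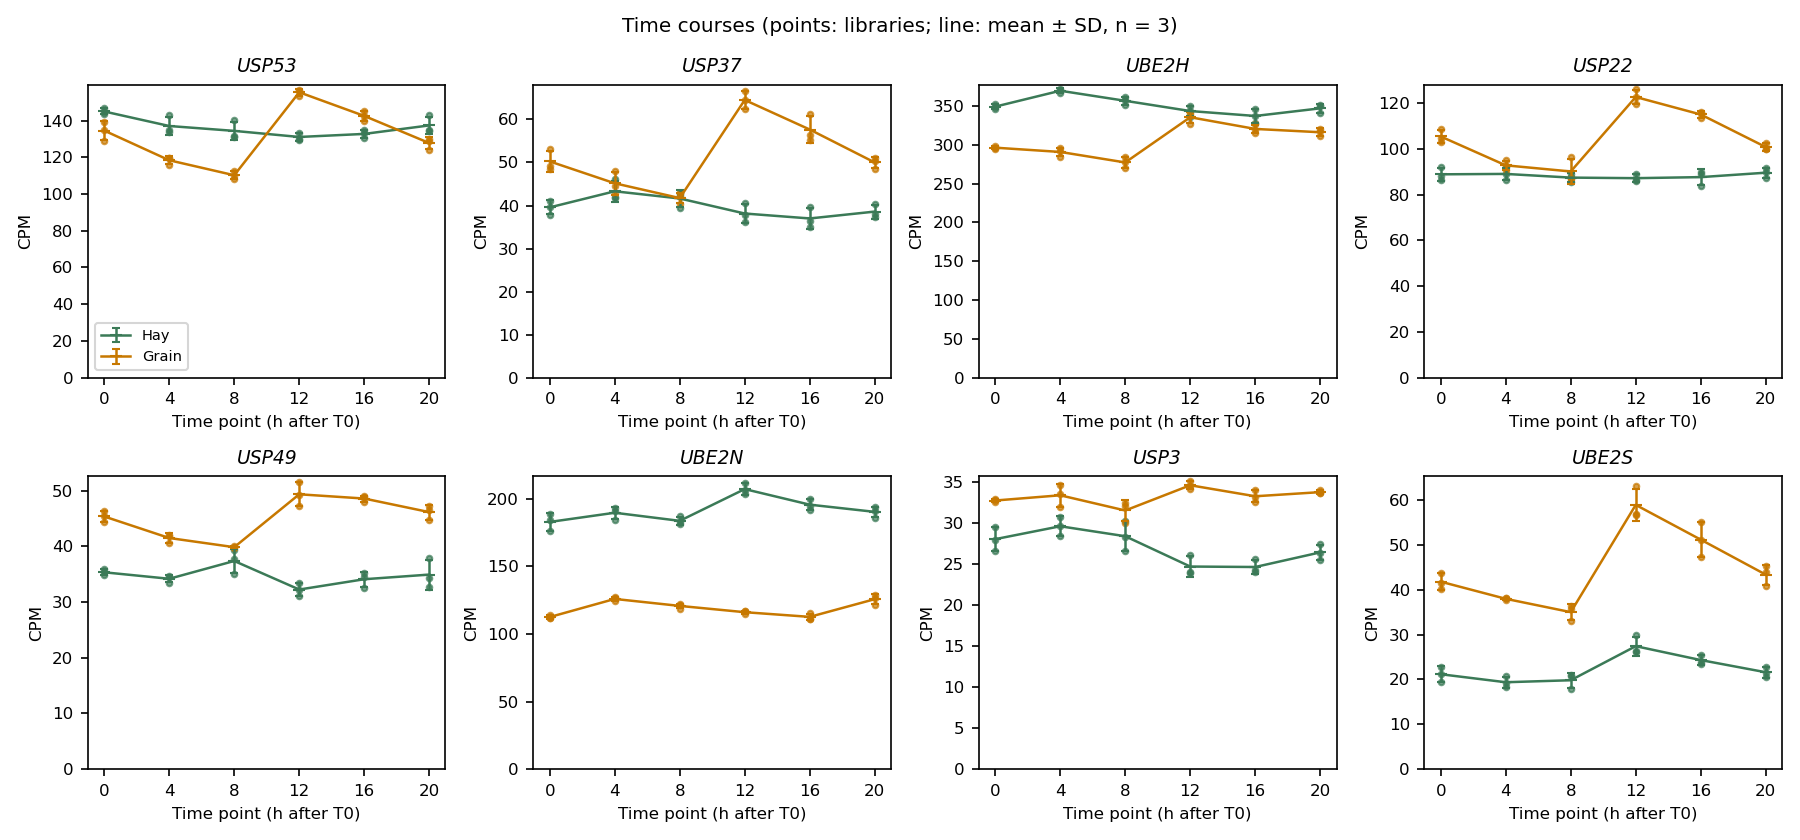
Level (vertical axis, CPM after TMM scaling, from 0) by time point (horizontal axis, h after T0) of 8 genes in Hay and Grain, with points for libraries and lines for the mean ± SD (n = 3). In Grain, USP53, USP37, USP22 and UBE2S step up between T8 and T12, and with library totals only by less.

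Levels differed between the 6 time points for 64 genes in Grain (background 51.5%) and 51 in Hay (background 35.2%). Without the T12 libraries, with fewer samples and contrasts, they did for 56 and 25. Over all genes the Hay count then fell from 7927 to 5087, and that of Grain is not given here. T12 was the time of the highest group mean for 39 of 89 genes in Grain and 36 in Hay, and T8 the time of the lowest for 40 in Grain (over all genes 26.7% and 27.5% were highest at T12, and 24.2% lowest at T8 in Grain). This is not firm, because with library totals only T12 was the lowest for 51 genes in Grain and 44 in Hay and the highest for 12 and 20. Examples of genes whose Grain mean stepped up from T8 to T12 under both scalings are UBE2S (0.75, and 0.47 with library totals only), USP37 (0.63 and 0.35), USP28 (0.58 and 0.30), UBE2F (0.58 and 0.30), UBE2O (0.52 and 0.24), USP53 (0.50 and 0.22), USP22 (0.44 and 0.17) and UBE2L3 (0.44 and 0.16), all log2 ratios of group means. USP40 went the other way (-0.76 and -1.04), from 132, 138 and 145 to 81.2, 81.8 and 82.0 CPM in Grain, and so did UBE2D1 (-0.53 and -0.80).

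A cosine of fixed 24 h period was called for 43 genes in Grain (background 31.8%) and 24 in Hay (background 20.7%). A call was made in both media for 12 genes and in neither for 34, and shares over all genes were not taken for these 2 counts. Each medium has a single cycle of 6 time points, so a 24 h component is a fit to this course and not a repeated rhythm. Amplitudes were small: the median over the set was 0.0856 on the log2 scale in Grain and 0.0663 in Hay, against 0.158 and 0.131 over all genes. The 6 largest called amplitudes in Grain were those of OTUD7A (0.31, SE 0.088, peak at 3.4 h after T0), USP13 (0.30, SE 0.071, 2.0 h), USP44 (0.29, SE 0.064, 2.9 h), UBE2S (0.28, SE 0.051, 15.1 h), USP40 (0.25, SE 0.047, 4.2 h) and OTUD1 (0.23, SE 0.040, 3.3 h). OTUD7A, USP13 and USP44 stood under 5 CPM, and OTUD7A lost its call without the T12 libraries (adjusted p = 0.0870) or without any 1 of 3 Grain libraries (0.0508 to 0.0549).

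In Hay the largest were UBE2QL1 (0.23, SE 0.062, peak at 14.4 h), UBE2S (0.21, SE 0.051, 14.6 h), OTUD1 (0.20, SE 0.040, 6.0 h), UBE2D1 (0.18, SE 0.051, 4.0 h), UBE2L3 (0.17, SE 0.038, 14.4 h) and UBE2A (0.16, SE 0.031, 14.6 h). UBE2QL1 was not called with library totals only (adjusted p = 0.115), without Hay T12 replicate 2 (0.0563) or without the T12 libraries (0.102). UBE2D1 lost its call without any 1 of 6 Hay libraries (0.0514 to 0.0574). Without Hay T12 replicate 2 the genes of the set called in Hay numbered 13 in place of 24. Over all genes the number was 3932 in place of 4647. UBE2S was called in both media with peaks that do not differ beyond their SEs of 0.68 and 0.95 h. Peak times fell in 2 windows: 14 of 43 genes in Grain and 7 of 24 in Hay peaked between 0 and 6 h after T0, and 24 and 16 between 12 and 18 h. Over all genes with a called component the shares were 49.2% in Grain and 34.3% in Hay for the earlier window, and 44.3% and 59.6% for the later one. These windows follow the scaling, since with library totals only 42 of 51 genes in Grain and 22 of 27 in Hay peaked between 0 and 6 h, as did 81.3% and 64.5% of all genes called. UBE2S, USP37, USP28, UBE2O, UBE2F, USP22 and USP53 kept a called Grain peak between 12 and 18 h under both scalings.

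**Figure D5:**
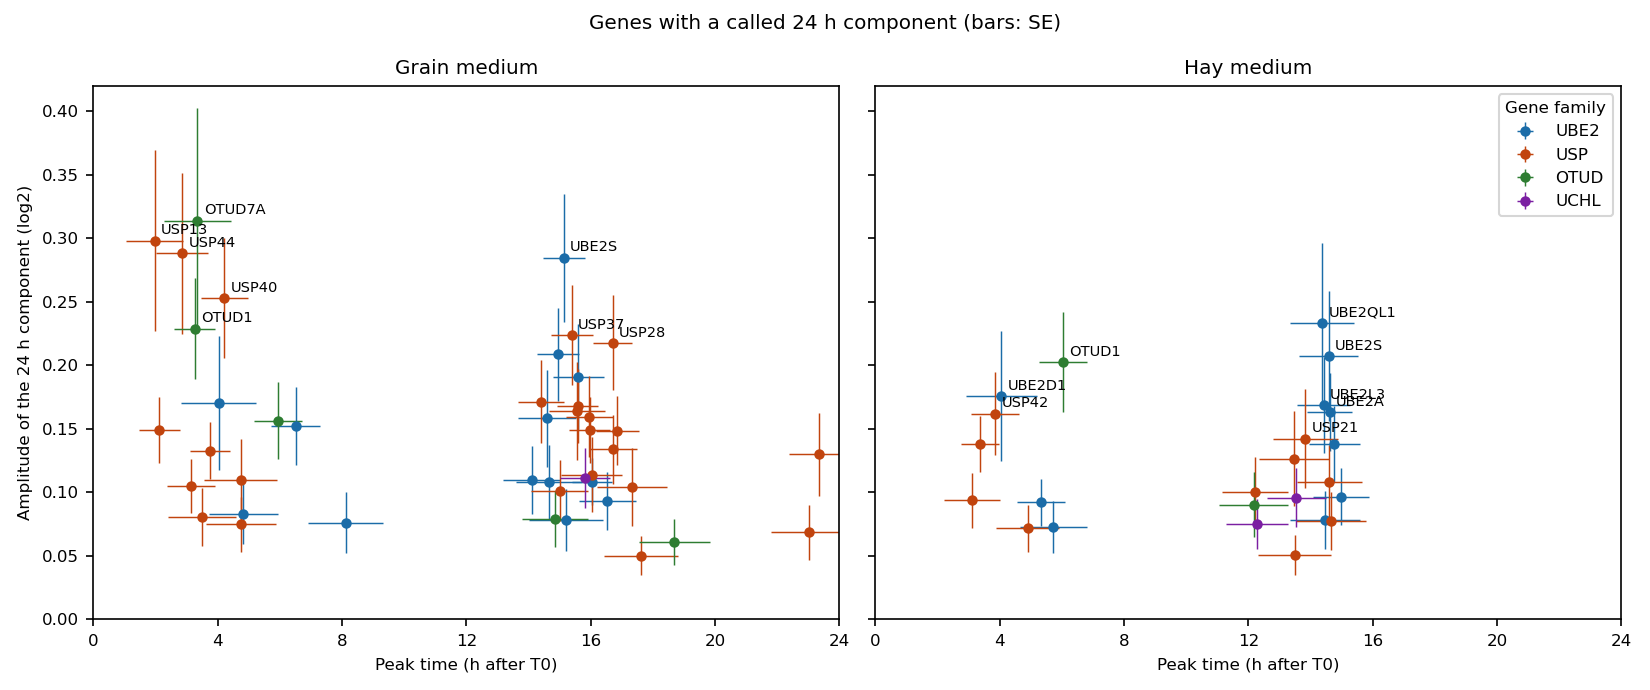
Amplitude (vertical axis, log2 scale) against peak time (horizontal axis, h after T0) of the genes with a called 24 h component, 43 in Grain (left) and 24 in Hay (right), with bars for the SE and colours for the family. Points gather in windows of 0 to 6 h and 12 to 18 h after TMM scaling, and mostly in the first with library totals only.

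The 24 h component differed between the media for 15 genes (background 11.3%). UBE2H peaked at 16.1 h in Grain (amplitude 0.11, SE 0.018) and had a smaller component in Hay that was not called with TMM (0.06, SE 0.018; adjusted p of the difference = 0.000239). USP37 had an amplitude of 0.22 (SE 0.040) in Grain and 0.10 (SE 0.039) in Hay, with a peak at 15.4 h in Grain (0.000582). USP3 was the reverse, flat in Grain (0.03, SE 0.022) and called in Hay (0.14, SE 0.022, peak at 3.4 h; 0.00177). USP53 had 0.16 (SE 0.032) in Grain and 0.06 (SE 0.032) in Hay (0.00766). The test of the difference also passed for these 4 genes with library totals only, at adjusted p values from 9.15e-05 to 0.0397, but which medium carried the component depended on the scaling. With library totals only UBE2H was called in Hay (adjusted p = 2.34e-05) and not in Grain (0.480), and USP37 and USP53 were called in Hay (0.000859 and 0.000767) as well as in Grain (0.00201 and 0.0215). USP3 was called in Hay and not in Grain under all 3 scalings.

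Around the set, other parts of the same relay also moved in both directions. Of 9 E1 enzymes 4 rose and 5 fell: UBA1, the main ubiquitin activator, rose by 0.26 (SE 0.010) and UBA6, the other one, by 0.19 (SE 0.015). Of 11 genes for ubiquitin and related modifiers 7 rose and 4 fell, among them the ubiquitin genes UBB (0.13, SE 0.011) and RPS27A (0.71, SE 0.017) on the side of the rises. With library totals only the split was 5 and 5. Of 8 E2 enzymes with other names 4 rose, 2 fell and 2 did not pass, with CDC34 at 1.08 (SE 0.018; 94.4 ± 4.73 against 44.7 ± 5.16 CPM), a larger fold than that of its copy UBE2R2 (0.20), and the giant BIRC6 at -0.83 (SE 0.023). Of 25 other deubiquitinases 17 rose and 8 fell (12 and 8 with library totals only), with the ER enzyme YOD1 at 0.89 (SE 0.016) and the H2A enzyme MYSM1 at 0.80 (SE 0.015), and SUMO and NEDD8 proteases had 3 of 9 up and 5 down, with SENP7 at -1.06 (SE 0.034).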

How the data were processed

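The deposited table holds whole-number read counts per gene for 36 libraries, made by the authors. Per the labels' protocols, RNA was extracted with TRNzol, libraries were built with a TruSeq RNA v2 kit and sequenced as read pairs on a NovaSeq. The submitters' processing notes name HISAT2 2.2.1, SAMtools 1.20 and StringTie 2.1.5, while a build or a counting tool was not given in the sources used here. TruSeq RNA v2 does not mark strand, so reads from stretches where exons of 2 genes overlap cannot be told apart. In RefSeq's annotation 30 genes of the set overlap another gene, 17 of them 1 or more genes with at least 5% of their counts. Overlap was taken from whole gene spans, introns included, and exons were not compared. Whether reads of these genes were mixed was therefore not tested, and a sum with an overlapping gene does not correct for it.

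Counts were fitted in edgeR 4.0.16 (R 4.3.3, limma 3.58.1) with 12 groups of medium and time, TMM scaling and the quasi-likelihood test, after a filter for genes with at least 10 counts in enough libraries (total at least 15), which kept 22488 of 35223 genes. P-values were adjusted by Benjamini-Hochberg over all genes tested and called under 0.05. CPM are counts relative to library size after TMM scaling. The 24 h component was a cosine and sine of fixed period in the same counts. The steps were first tested on simulated data with 200 changed genes. Depth was 52.4 to 65.3 M counts a library in Grain and 55.1 to 68.1 M in Hay.

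The genes and lists were chosen with earlier results of these data known. Counts cover the whole set and lists, of which a few genes are not reported here by name. Full statistics are given for the 10 largest rises and 10 largest falls among genes at 5 CPM or more that kept 1 direction, the 6 smallest p-values for dependence on time, the 6 largest called amplitudes per medium, the 4 smallest p-values for a different 24 h component, up to 4 genes per role and the related pairs. Other genes named, such as USP26, were chosen after their values were seen. Alternatives were DESeq2 1.42.0, its size factors, no filter, a replicate block, separate fits and each library left out. Fits with library totals only, with counts of overlapping genes summed, and without T12 were chosen after seeing the data.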

Additional observations from a re-analysis of the deposited data

Results flagged for a closer look

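For 6 genes the Grain minus Hay difference changed with time by a test of that change itself (edgeR, adjusted p over all genes): USP53 (2.311e-11), USP37 (2.564e-10), UBE2H (5.629e-10), USP22 (5.05e-09), USP49 (5.731e-07) and UBE2N (1.496e-06). For USP53, USP37, USP22, USP49 and UBE2H Grain gained on Hay between T8 and T12, and for UBE2N Hay gained on Grain. USP53 overlaps PDE5A, and USP49 overlaps TOMM6 and MED20.

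For 4 genes the 24 h component differed between the media by a test of the difference (edgeR, adjusted p over all genes): UBE2H (0.0002385), USP37 (0.0005819), USP3 (0.001775) and USP53 (0.007662). With TMM scaling UBE2H, USP37 and USP53 had the larger amplitude in Grain, and USP3 in Hay. With library totals only UBE2H was called in Hay (adjusted p = 2.34e-05) and not in Grain (0.480), so the direction for UBE2H depends on the scaling, and USP37 and USP53 were called in both media.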

How the results depend on the processing

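All 35 counts of called genes stayed within 1.5 times under DESeq2 size factors, without the low-count filter and under the replicate block, as did the 25 that DESeq2 gave. In deviations from the group mean, same-numbered Grain and Hay libraries of a time point correlated at -0.0393 to 0.0277. Of 18 Grain libraries 6 were closest to their own number, so no pairing was seen between the media. Whether a replicate number links libraries of different time points was not examined. With the replicate block 44 genes of the set were higher and 38 lower in Grain, as without it. Chosen after seeing the data, the fit with library totals only gave 25 higher and 46 lower at T12 (41 and 28 with TMM). It turned the sign of UBE2Q1 (-0.1038), UBE2Z (-0.08279), USP16 (-0.009835), USP33 (-0.1199), USP38 (-0.03396) and USP8 (-0.04671). Only UBE2Z and USP8 were called in both fits. UBE2Q1 and USP33 were not called with TMM, and USP16 and USP38 not with library totals only (edgeR, adjusted p = 0.477 and 0.0750). Summing overlapping genes, also chosen after seeing the data, turned the sign of UBE2D4 (-0.02274), UBE2T (0.1867), USP30 (-0.06817) and USP42 (0.5088). UBE2D4 was not called when summed (edgeR, adjusted p = 0.403), UBE2T and USP30 were not called before, and USP42 was called in both fits. Without the T12 libraries 25 genes of the set (51 with them) and 5087 of all genes (7927) differed between times in Hay, where fewer samples and contrasts entered. Leaving out each library in turn, the genes of the set at least 2-fold lower in Grain numbered 0 to 1. Those with a 24 h component in Hay numbered 13 to 29 (3932 to 4765 over all genes), lowest without Hay T12 replicate 2. The cause of these changes was not tested. Low counts limit the 9 genes under 5 CPM in both media.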

Other observations

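USP2 and UBE2C, which carry the names of these families but were left out of the set by rule, were both higher in Grain, by 0.79 and 2.19 on the log2 scale. USP43 (0.61, and 0.18 when summed with its overlapping genes), USP54 (0.43), USP35 (0.27) and USP27X (0.33) were further genes of the set called higher in Grain, and USP40 (-0.45), USP50 (-0.36) and USP42 (-0.26) were called lower. USP42 overlaps CYTH3, which has 479% of its counts, and summed with that gene it stood at 0.51. USP50 lost its call when summed with its overlapping gene (-0.08, adjusted p = 0.532).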
